A study of Caenorhabditis elegans with 2 samples.

Results

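A divergent coding promoter is the stretch of DNA from which a pair of protein-coding genes is transcribed in opposite directions, 1 gene on the minus strand to the left and 1 on the plus strand to the right. Peaks at such promoters were taken from a chromatin immunoprecipitation and sequencing (ChIP-seq) experiment on F23B12.7 in Caenorhabditis elegans. A peak was a member when its summit lay within 500 bp of at least 1 minus-strand and 1 plus-strand coding start, with the minus-strand start on the left. Of 1684 nuclear peaks, 321 met this rule, which is 19.1% (95% exact binomial interval 17.2 to 21.0%). They made up 31.9% of the 1007 peaks with any coding start in reach. The other peaks were 677 with 1 coding start in reach, called single-gene peaks below, 9 with several starts that were not divergent, and 677 with no coding start in reach.

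The animals were whole young adult hermaphrodites of strain OP429, of unknown age, which carries unc-119(tm4063) III and the integrated transgene wgIs429, with GFP and FLAG tags at the C-terminal end of F23B12.7. Chromatin was sheared by sonication and recovered with an antibody against GFP in 2 biological replicates of 1 group. Both came from this 1 strain, so no wild-type animals or other conditions were compared. The peaks are those that passed the authors' test of irreproducible discovery rate (IDR), a measure of how alike regions rank in replicates. How it was applied here is not given, and some members ranked far apart in the replicates. Whole animals were used, so the cells that gave rise to a peak cannot be told apart. The labels name a possible control library, but neither its kind nor its use in peak calling is given there. F23B12.7 itself had none of these peaks in reach of its start (chromosome V, 14449697 to 14452976, plus strand). Its nearest minus-strand coding start to the left, that of dlat-1, lay 2407 bp away, so it is not in a divergent pair under this rule.

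Divergent promoters are common in compact genomes such as that of the worm, where neighbouring genes can share 1 accessible stretch of DNA. A factor bound there lies upstream of both genes at once, and a ChIP-seq peak alone does not tell which of them it acts on. In this species many messenger RNAs receive a spliced leader by trans-splicing, so the annotated 5′ end of a gene can lie downstream of the place where transcription began. Ribosomal protein genes, splicing factors, chaperones and other genes that every cell uses are known to be transcribed in nearly all tissues.

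The sequences of some of the strongest members are given first, read from the RefSeq genome of WBcel235, the same build as ce11, on the plus strand. Each of the first 8 runs from 50 bp left to 50 bp right of the summit and holds the letters ACCGTA, the 6-base word whose share differed most between member summits and pairs without a peak. Capitals mark these letters or their complement on the other strand, TACGGT. They are shown because a ribosomal protein gene, an elongation factor gene, splicing factors, a subunit of the protein translocon and chaperone genes carry the same word under the summit.
rpl-15/K11H12.8 (chrIV:654866-654966): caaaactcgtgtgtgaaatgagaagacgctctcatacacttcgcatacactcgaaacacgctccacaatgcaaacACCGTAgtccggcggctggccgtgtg
rpl-20/Y17G9B.5 (chrIV:4750012-4750112): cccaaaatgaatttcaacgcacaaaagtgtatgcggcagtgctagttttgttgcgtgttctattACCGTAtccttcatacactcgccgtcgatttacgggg
eef-1A.1/rfc-4 (chrIII:6972047-6972147): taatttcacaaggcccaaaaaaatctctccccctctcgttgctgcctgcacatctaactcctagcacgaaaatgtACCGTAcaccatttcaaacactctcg
snr-3/rsp-5 (chrII:6489932-6490032): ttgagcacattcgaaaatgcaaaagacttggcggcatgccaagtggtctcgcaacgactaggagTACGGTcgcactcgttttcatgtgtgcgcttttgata
sec-61.B/trap-3 (chrIV:2389040-2389140): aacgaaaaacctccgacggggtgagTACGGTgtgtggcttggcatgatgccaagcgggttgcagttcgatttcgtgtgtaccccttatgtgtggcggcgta
cct-8/Y55F3AR.2 (chrIV:1094307-1094407): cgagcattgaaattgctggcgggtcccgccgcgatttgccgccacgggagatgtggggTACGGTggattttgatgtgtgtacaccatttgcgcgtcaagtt
clu-1/prp-40 (chrIII:9521849-9521949): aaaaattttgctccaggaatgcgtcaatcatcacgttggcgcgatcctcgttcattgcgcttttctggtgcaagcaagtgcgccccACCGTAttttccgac
hsp-6/C37H5.5 (chrV:4827119-4827219): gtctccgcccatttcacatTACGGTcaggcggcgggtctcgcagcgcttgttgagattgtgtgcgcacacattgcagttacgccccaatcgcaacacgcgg

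The next 3 come from strong members without these letters at the summit. For ctf-4/eef-1G the whole stretch from start to start is shown, since it is short enough to read, and for col-38/rpl-5 and sna-3/rps-3 the bases within 50 bp of the summit.
ctf-4/eef-1G (chrV:10965539-10965719): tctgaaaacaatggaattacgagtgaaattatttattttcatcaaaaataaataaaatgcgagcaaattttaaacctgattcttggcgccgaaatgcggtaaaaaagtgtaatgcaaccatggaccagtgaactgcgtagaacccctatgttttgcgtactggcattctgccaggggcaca
col-38/rpl-5 (chrII:8569475-8569575): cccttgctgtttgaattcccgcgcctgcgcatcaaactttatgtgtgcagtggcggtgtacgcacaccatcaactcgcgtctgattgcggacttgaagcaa
sna-3/rps-3 (chrIII:6206416-6206516): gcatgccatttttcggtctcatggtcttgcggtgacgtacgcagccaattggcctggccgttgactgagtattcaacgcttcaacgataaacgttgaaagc
All 11 lie in the space upstream of both genes of the pair. None of the last 3 holds a capital, and all 3 were among the 15 strongest members.

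The 321 members had 321 distinct gene pairs, with 642 genes. Their starts lay 15 to 900 bp apart, with a median of 390 bp and quartiles of 285 and 538 bp. In 9 members 3 coding starts were in reach. Most summits lay in the middle part of the pair. The summit was between the starts in 294 members (91.6%, 88.0 to 94.4%), within 50 bp of the exact middle in 136 (42.4%) and within 100 bp in 237 (73.8%). The nearer start was a median of 133 bp away and the farther one 269 bp. The summit was nearer the minus-strand start in 145 members and nearer the plus-strand start in 176. Part of this follows from the rule, since a summit within 500 bp of starts that are 500 bp or more apart can only lie between them, as in 97 members. Among the 224 members with closer starts, the summit lay between the starts in 197 (87.9%, 82.9 to 91.9%). There the space between the starts made up a median of 49.03% of the positions in reach of both.

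The 27 summits that were not between the starts lay a median of 17 bp and at most 334 bp past a start, 12 inside the minus-strand gene and 15 inside the plus-strand gene. Short pairs held most of them: with starts up to 200 bp apart, 19 of 34 summits were between the starts (55.9%, 37.9 to 72.8%). With starts 201 to 400 bp apart it was 124 of 136 (91.2%, 85.1 to 95.4%). The strongest member of this kind was rab-18/kbp-4, where the summit lay 32 bp inside rab-18, which encodes a small GTPase of membrane traffic. In mcrs-1/atp-1 it lay 12 bp inside atp-1, which encodes the alpha subunit of the mitochondrial ATP synthase. At the 677 single-gene peaks 88.8% of summits lay upstream of the start, and the median position of all 677 was 189 bp upstream.

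**Figure D1:**
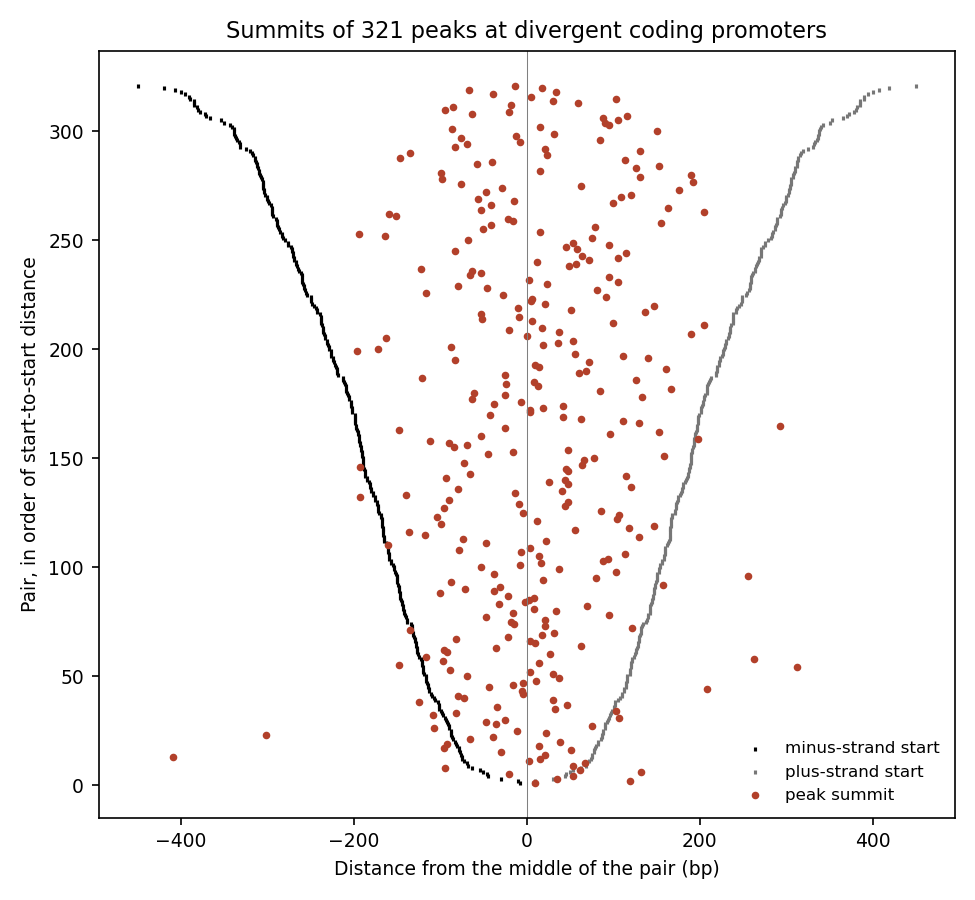
Each row is 1 of the 321 gene pairs, ordered by the distance between the starts. The x axis gives the distance from the middle of the pair in bp, with the minus-strand start in black on the left, the plus-strand start in grey on the right and the summit in red. Summits fill the space between the starts, 237 of them within 100 bp of the middle, and 27 lie outside it.

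The strongest members stood at genes of the protein synthesis machinery. The signal is the authors' own value for the pooled reads of both replicates and has no unit, and ranks are among the 1684 nuclear peaks. The peak between rpl-15, a gene of the large ribosomal subunit, and K11H12.8 had a signal of 238 and rank 4 (chromosome IV, 654822 to 655023). Its signal was 139 in replicate 1 and 95.6 in replicate 2. The peak between rpl-20, another gene of the large subunit, and Y17G9B.5 had 237 and rank 5 (chromosome IV, 4749956 to 4750183), with 151.3 in replicate 1 and 86.1 in replicate 2. These were followed at some distance by rps-20/ekl-4, with a signal of 194, 133 in replicate 1 and 62.5 in replicate 2. The rps-20 gene encodes a protein of the small ribosomal subunit.

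Below these 3 the signal of the strongest 15 members ran from 153 down to 119, and in 9 of these 12 a ribosomal protein or elongation factor gene was in the pair. The pair rps-19/hsr-9 had 153, with 100.04 in replicate 1 and 54.8 in replicate 2. ska-3/rps-12 had 148, with 113 in replicate 1 and 38.2 in replicate 2; ska-3 encodes a kinetochore protein. A small nucleolar RNA gene, F54E7.10, also lay within 250 bp of that summit. rps-15/F36A2.9 had 146, with 94.7 in replicate 1 and 49.7 in replicate 2. In ctf-4/eef-1G, with 145, the partner ctf-4 encodes a replication fork protein and eef-1G the gamma subunit of elongation factor 1. Its signal was 100.7 in replicate 1 and 38.0 in replicate 2, and the summit lay 15 bp from the eef-1G start.

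rab-18/kbp-4, whose plus-strand gene encodes a kinetochore protein, had 136, with 88.6 in replicate 1 and 47.03 in replicate 2. rpl-12/lin-54 had 134, with 78.4 in replicate 1 and 55.9 in replicate 2; lin-54 encodes the DNA-binding subunit of a conserved repressor complex. eef-1A.1/rfc-4 had 133, and was the exception among the 15 in that replicate 2 (74.2) was above replicate 1 (61.7). The eef-1A.1 product delivers aminoacyl-tRNA to the ribosome, and rfc-4 encodes a subunit of the clamp loader of DNA replication. rps-10/rpl-24.1, in which both genes encode ribosomal proteins, had 133, with 92.2 in replicate 1 and 42.7 in replicate 2. The remaining 4 were mcrs-1/atp-1 (124), col-38/rpl-5 (121), sna-3/rps-3 (120) and tim-1/Y75B8A.23 (119). Their signal was 68.0 to 82.4 in replicate 1 and 36.8 to 53.6 in replicate 2. tim-1 encodes the worm counterpart of the clock and replication protein Timeless, and the snRNA gene sls-2.8 lay within 250 bp of that summit. All 15 were among the strongest 137 regions of replicate 1 and the strongest 217 of replicate 2.

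Across all members the signal ran from 38.1 to 238, with a median of 56.8 (95% interval of the median 54.6 to 59.6). Single-gene peaks had a median of 51.6 (50.2 to 52.8) and a range of 38.1 to 310, and the 3 strongest nuclear peaks were not among the members. Of the members, 59.5% (53.9 to 64.9%) were above the median of all nuclear peaks, against 48.2% (44.3 to 51.99%) of single-gene peaks. The intervals do not overlap, and no test over peaks was made. The strongest 100 nuclear peaks held 26 members and 32 single-gene peaks. The median rank percentile was 60.01 for members and 56.6 for members without a cytosolic ribosomal protein gene, against 48.7 for single-gene peaks. Signal and start-to-start distance had a Spearman correlation of 0.15 over the 321 members, which is weak.

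**Figure D2:**
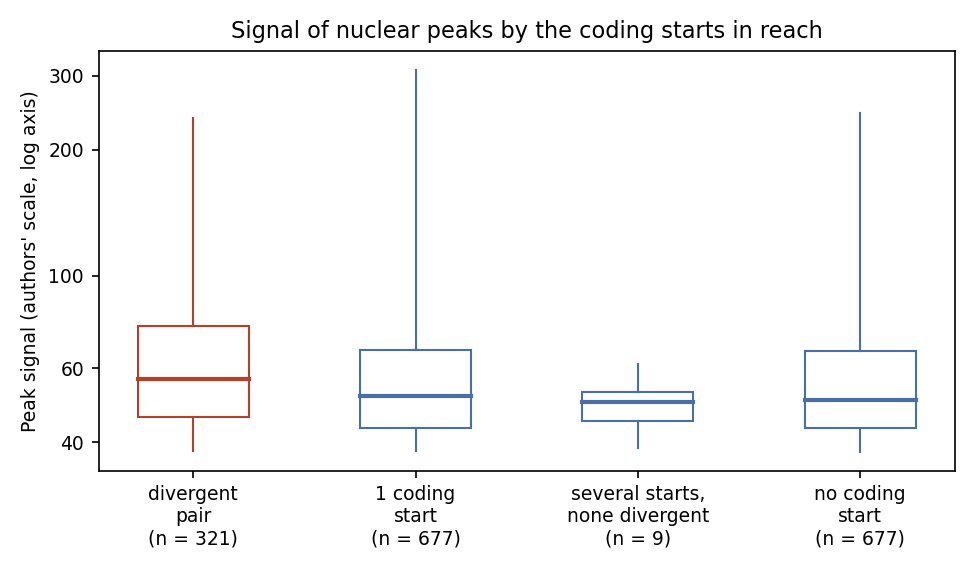
The y axis gives the authors' signal of nuclear peaks on a log axis, by the coding starts within 500 bp of the summit. Boxes run from the lower to the upper quartile, the thick line is the median and the thin lines reach the lowest and highest peak. The median is 56.8 at divergent pairs, against 51.6 at single-gene peaks, and the ranges overlap over most of their length.

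Members were also common when counted from the genes. An IDR summit lay within 500 bp of the start of 1342 of 19973 protein-coding genes, which is 6.72%. The genome held 1745 pairs of neighbouring divergent coding starts at most 1000 bp apart, and 321 of them (18.4%, 16.6 to 20.3%) had an IDR summit within 500 bp of both starts. This set of 321 pairs and that of the members differ by 1 pair. The member lin-7/elof-1, with 3 coding starts in reach, was not counted as a neighbouring pair. Of 15282 single starts, with no other coding start within 1000 bp, 547 (3.58%, 3.29 to 3.89%) had an IDR summit in reach. The share of pairs was 5.14 times that of single starts, and a pair has 2 starts: if either of 2 starts could have a peak at the single-start share, 7.03% would. A summit in reach of both starts has fewer bases to fall in than a summit in reach of 1.

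The share varied with how far apart the starts were. It was 13.7% (9.68 to 18.6%) for pairs up to 200 bp apart and 22.7% (17.7 to 28.3%) at 201 to 300 bp. It was highest at 301 to 400 bp, with 77 of 214 pairs, or 36.0% (29.6 to 42.8%). From there it was 27.7% at 401 to 500 bp, 22.3% at 501 to 600 bp and 13.7% at 601 to 800 bp. At 801 to 1000 bp it was 3 of 271, or 1.11% (0.229 to 3.20%). The bases in reach of both starts become fewer as the distance grows, and the part this plays in the decline was not tested.

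**Figure D3:**
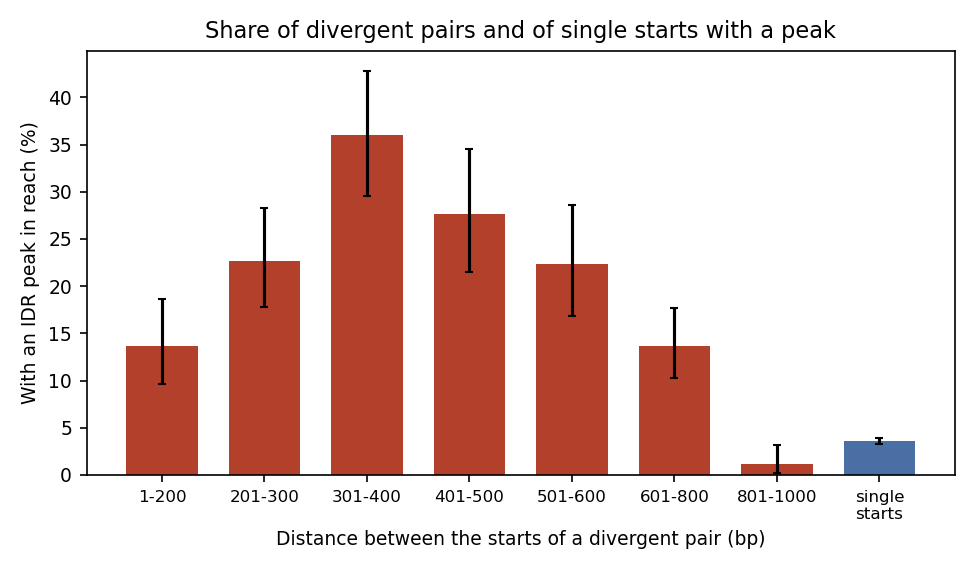
Bars give the share of divergent coding pairs with an IDR summit within 500 bp of both starts, by the distance between the starts in bp, in red, and of single starts in blue at the right. Error bars are 95% exact binomial intervals. The share is highest, 36.0%, at 301 to 400 bp, and every group up to 800 bp lies above the 3.58% of single starts.

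The authors also deposited the 30000 strongest regions of the pooled reads before the IDR test, which reach down to background. A region of that list lay in reach of both starts in 777 pairs (44.5%), against 5054 single starts (33.1%). Of these, 41.3% of the pairs and 10.8% of the single starts had an IDR peak. The shares with any region come from unlike windows, since a summit had to be in reach of both starts of a pair. Fewer bases meet that rule than lie in reach of a single start. In which step pairs and single starts differ more was therefore not tested.

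Genes of basic cell processes were frequent among the members. Of the 642 member genes, 173 (26.9%) were in 14 lists of such genes, sorted by name. This compares with 203 of 2849 genes (7.13%) in divergent pairs without a peak and 4.59% of all coding genes. The 14 lists include DNA replication and cell cycle genes, so not all of their genes need be used by every cell. Histones were not among these 14 lists, and 3 of 64 histone genes in divergent pairs had a divergent peak (4.69%). The arrangement and the gene group both went with the share that had a peak. Of listed genes in a divergent pair, 173 of 376 had a divergent peak (46.01%, 40.9 to 51.2%), against 22.1% (18.4 to 26.2%) of 456 listed genes with a single start. Of the genes outside these lists, 468 of 3114 in a divergent pair had one (15.03%, 13.8 to 16.3%), against 446 of 14826 single starts (3.01%, 2.74 to 3.30%). Within either kind of gene the intervals of pairs and single starts do not overlap. Among single starts the intervals of listed and other genes do not overlap either. The higher share of listed genes was therefore not particular to pairs. No test was made. A gene in a pair counts here when its partner's side is bound as well, since 1 summit serves both. Genes of a pair are therefore not independent, and the intervals for genes in pairs are too narrow.

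Cytosolic ribosomal protein genes had the highest share of the 19 lists. Of 48 in divergent pairs, 38 had a divergent peak (79.2%, 65.0 to 89.5%), and of 25 with a single start 18 had a peak (72.0%, 50.6 to 87.9%), so their share was high in both arrangements. The 35 pairs with such a gene had a median signal of 95.9, against 55.0 for the other members, and 11 of the 20 strongest members were among them. In the 32 pairs where 1 gene encoded a ribosomal protein, the summit lay a median of 281.5 bp from its start and 196 bp from the partner's start. The ribosomal protein start was the farther one in 23 of the 32. In replicate 1 the medians were 293 bp and 196 bp, with the ribosomal protein start farther in 22 pairs. In replicate 2 they were 266.5 bp and 189.5 bp, again with 22 pairs.

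For the mitochondrial ribosome, whose protein genes are nuclear, the count was 11 of 25 in pairs (44.0%, 24.4 to 65.1%) and 7 of 31 single starts (22.6%, 9.59 to 41.1%). Its strongest members were rpl-28/mrpl-49 (93.5), mrps-17/txdc-9 (82.6) and mrps-7/Y57G11C.3 (77.4). Translation factors had 12 of 23 in pairs (52.2%, 30.6 to 73.2%) and 5 of 16 single starts (31.2%, 11.0 to 58.7%). The eef-1G and eef-1A.1 pairs were their strongest, followed by clu-1/prp-40 (92.6), where clu-1 was listed as a translation factor and prp-40 encodes a U1 snRNP protein. Of 11 aminoacyl-tRNA synthetase genes in pairs, the enzymes that charge tRNAs, 1 had a divergent peak, ears-2 (86.2), which is 9.09% (0.230 to 41.3%), against 2 of 18 single starts (11.1%, 1.38 to 34.7%). Genes of ribosome assembly and RNA polymerase I had 8 of 14 in pairs (57.1%, 28.9 to 82.3%), against 2 of 15 single starts (13.3%, 1.66 to 40.5%). They included fib-1 with mut-15 (83.7), where fib-1 encodes the nucleolar methyltransferase fibrillarin, lpd-7 with rpl-9 (68.5) and nol-10 with cec-5 (67.6).

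Splicing genes had 16 of 33 in pairs (48.5%, 30.8 to 66.5%), against 6 of 26 single starts (23.1%, 8.97 to 43.6%). In snr-3/rsp-5, an Sm protein gene faced a gene of an SR splicing factor, with a signal of 101.1, 59.8 in replicate 1 and 44.4 in replicate 2. In rsp-2/rsp-1 both genes encode SR proteins, and the signal was 81.6, 60.6 in replicate 1 and 27.5 in replicate 2. Of the proteasome genes in pairs, 12 of 20 had a divergent peak (60%, 36.1 to 80.9%), against 3 of 10 single starts (30%, 6.67 to 65.2%). Their strongest were rpn-9/T06D8.9 (91.9), hsp-110/rpn-3 (72.3) and rpn-5/scc-1 (65.9), in which scc-1 encodes a cohesin subunit. The ubiquitin system, which tags proteins for the proteasome, had 3 of 27 in pairs (11.1%, 2.35 to 29.2%) and 12 of 49 single starts (24.5%, 13.3 to 38.9%). Its 3 members were aka-1/ubc-6 (65.7), ubq-2/frg-1 (56.9) and tipn-1/ubxn-1 (40.1).

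Chaperone genes had 16 of 31 in pairs (51.6%, 33.1 to 69.8%), against 4 of 42 single starts (9.52%, 2.66 to 22.6%). The strongest was cct-8/Y55F3AR.2 (93.0), where cct-8 encodes a subunit of the cytosolic chaperonin. It was followed by hsp-6/C37H5.5 (92.4), with the mitochondrial Hsp70 gene, and F38A5.2/dnj-11 (92.1), with a J-domain protein gene. Genes of the respiratory chain and ATP synthase had 19 of 39 in pairs (48.7%, 32.4 to 65.2%) and 13 of 27 single starts (48.1%, 28.7 to 68.1%), so the shares lay close together, with wide intervals. After atp-1, the strongest were atp-3/F27C1.2 (117) and rbc-2/ndua-8 (104). Genes of the nuclear pore and nuclear transport likewise had close shares, with 10 of 22 in pairs (45.5%, 24.4 to 67.8%) and 9 of 20 single starts (45%, 23.1 to 68.5%). They included npp-3/top-2 (88.8), with a nucleoporin gene and the topoisomerase II gene, imb-1/mfsd-13.1 (77.8), with importin beta, and npp-14/cel-1 (73.9), with a nucleoporin and the mRNA capping enzyme.

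RNA polymerase II and its general factors had 6 of 12 in pairs (50%, 21.1 to 78.9%), against 2 of 40 single starts (5.00%, 0.611 to 16.9%), among them mdt-26 of the Mediator complex (82.0), rpb-12 (59.6) and rpb-3 (55.4). Membrane traffic had 13 of 39 (33.3%, 19.1 to 50.2%), against 13 of 86 single starts (15.1%, 8.30 to 24.5%), led after rab-18 by sec-61.B/trap-3 (95.4) and C17H12.2/vha-8 (81.0). vha-8 encodes a subunit of the vacuolar proton pump. DNA replication and cell cycle genes had 8 of 32 (25%, 11.5 to 43.4%), against 5 of 51 single starts (9.80%, 3.26 to 21.4%). They included, beside rfc-4, zyg-1, the kinase of centriole duplication (78.7), and psf-1, of the GINS replication complex (77.7). Of the 14 lists, the intervals of pairs and single starts were apart for chaperones and for RNA polymerase II and overlapped for each of the others.

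Histones and chemoreceptors had shares whose intervals lie below that of all pairs. Of 64 histone genes in divergent pairs, 3 had a divergent peak (4.69%, 0.977 to 13.1%), which is below the 18.4% of all pairs. These were his-67 and his-68, which share a peak (73.3), and htz-1, the variant H2A.Z, with wapl-1 (55.8). Copies of the core histone genes are near-identical, so these counts are uncertain. Of 127 chemoreceptor genes in pairs 2 had one (1.57%, 0.191 to 5.57%), among them sri-5, with the splicing coactivator gene rsr-1 (65.5). Collagens had 2 of 18 (11.1%, 1.38 to 34.7%), at col-38/rpl-5 and col-2/ndc-80 (94.4), and nuclear hormone receptors also 2 of 18, at nhr-142/F44E7.9 (60.3) and dnj-19/nhr-47 (53.1). These intervals hold the 18.4% of all pairs. Neuropeptides and insulins had 0 of 9, which allows a share of up to 33.6% by the exact interval. Of the partners of these collagen and receptor genes, rpl-5 and dnj-19 are in the lists of cytosolic ribosomal proteins and chaperones. The partners ndc-80, rsr-1 and F44E7.9 are in none of the lists.

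**Figure D4:**
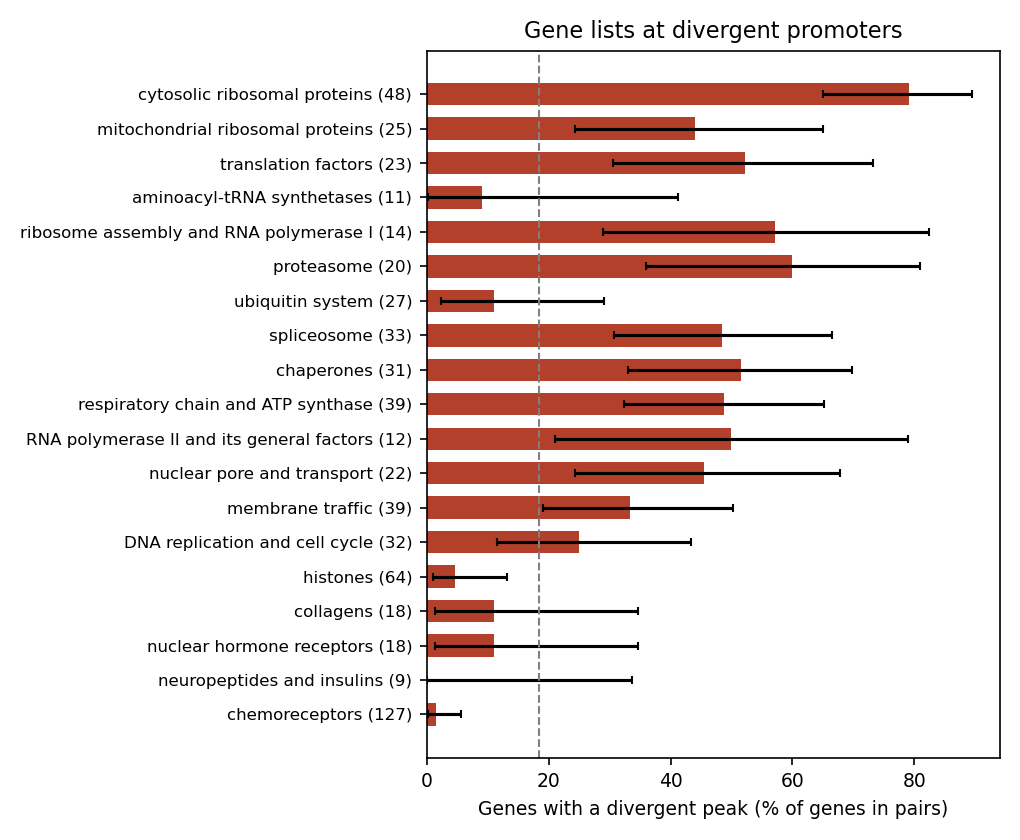
Bars give, for each gene list, the share of its genes in divergent coding pairs that had a divergent peak, in percent, with 95% exact binomial intervals. The number in brackets is the count of the list's genes in pairs, and the dashed line is the 18.4% of all pairs. Cytosolic ribosomal proteins reach 79.2%, and histones and chemoreceptors lie below the line with their whole intervals. Aminoacyl-tRNA synthetases, the ubiquitin system, collagens, nuclear hormone receptors, and neuropeptides and insulins also lie below it, with intervals that cross it.

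In 130 members 1 gene was in 1 of the 19 lists, in 26 both were, and in 165 neither was. The median signal was 72.8 with both genes listed, 61.6 with 1 and 53.1 with neither. Pairs with a cytosolic ribosomal protein gene, with a median of 95.9 against 55.0 for other members, count among those with listed genes. They were not taken out, so the medians do not show a link with listed genes in general. In 8 pairs both genes came from the same list. Ribosomal protein genes faced each other in rps-10/rpl-24.1, rps-14/rpl-36 and rpl-39/rps-30. The signal of rps-14/rpl-36 was 119, with 74.8 in replicate 1 and 43.7 in replicate 2, and that of rpl-39/rps-30 was 93.1, with 60.9 in replicate 1 and 34.3 in replicate 2. The summit lay near the middle of rpl-39/rps-30, at 256 and 243 bp from the starts. The other same-list pairs were snr-3/rsp-5, rsp-2/rsp-1, his-67/his-68, sec-61.B/trap-3, whose products act at the translocon of the endoplasmic reticulum (415 and 355 bp), and orc-5/cyb-1 (55.1), of the origin recognition complex and the cyclin B family.

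In the other 18 pairs with both genes listed, the genes came from different lists. A ribosomal protein gene faced a complex I gene in rpl-36.A/nuo-1 (95.9), a mitochondrial ribosomal gene in rpl-28/mrpl-49, a gene of ribosome assembly in rpl-9/lpd-7 and lsm-1, listed with splicing but known for mRNA decay, in rps-9/lsm-1 (77.8). The chaperone gene hsp-110 faced rpn-3, a gene of the proteasome lid, with the summit 232 bp from hsp-110 and 212 bp from rpn-3. The proteasome also met RNA polymerase II in pas-4/rpb-3 and translation in pbs-2/eif-6 (40.4). Nuclear transport met ribosome assembly in ran-1/dkc-1 (55.8), with the GTPase Ran and dyskerin, and the centrosome in spd-5/npp-6 (46.8), where the summit lay 214 bp inside spd-5. Described above were eef-1A.1/rfc-4, col-38/rpl-5, clu-1/prp-40 and dnj-19/nhr-47. The remaining 5 were mrps-15/asg-1 (55.2), prp-9/mrps-18B (44.5), snx-13/snr-1 (42.1), eif-1/vps-24 (41.0) and nst-1/cct-4 (40.5).

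The other lists did not share 1 order. In the 10 pairs with a gene of the nuclear pore and transport it was a median of 294.5 bp from that gene's start and 83.5 bp from the partner's, and the listed start was farther in 8. In 12 pairs with 1 splicing gene it was 302.5 bp from that gene and 126.5 bp from the partner, with the listed start farther in 9. The listed start was the farther one in 12 of 16 pairs for chaperones, 8 of 12 for translation factors, 7 of 11 for membrane traffic and 9 of 19 for the respiratory chain. It was farther in 4 of 11 for the mitochondrial ribosome, at 165 bp and 197 bp, and in 3 of 12 for the proteasome, at 203 bp and 239.5 bp. For ribosome assembly it was 3 of 8, and 2 of 6 each for RNA polymerase II and for DNA replication and the cell cycle. Over all members the farther start lay a median of 269 bp and the nearer one 133 bp from the summit, whichever the gene. These numbers of pairs are small, and the summits are estimates: they differed by a median of 30 bp between the replicates.

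All 321 members overlapped a region in the list of 30000 of each replicate. This says little about agreement, since 1 shared bp was enough and single-gene peaks matched in 99.9% and 99.7% of cases. The lowest rank of a matched region was 13181 in replicate 1 and 28643 in replicate 2. Of the members, 265 (82.6%, 78.0 to 86.5%) were among the strongest 1707 regions of replicate 1, and 245 (76.3%, 71.3 to 80.9%) among those of replicate 2. They were among the strongest of both replicates in 203 cases (63.2%, 57.7 to 68.5%), against 56.9% (53.0 to 60.6%) of single-gene peaks, and among those of neither in 14. The signal of the members ran from 8.70 to 151.3 in replicate 1, with a median of 35.0, and from 3.55 to 95.6 in replicate 2, with a median of 22.997. The value in replicate 1 was the higher one in 267 of 321 members, on scales that the authors set separately for each list. Between the replicates the signal had a Spearman correlation of 0.44 over the members, against 0.33 over single-gene peaks. These peaks had been selected by the IDR test, a measure of agreement between replicates, and the points share the libraries and their depth. The summit lay between the starts in 90.3% of members in replicate 1 and 91.0% in replicate 2, and shifted from the pooled summit by a median of 6 bp and 19 bp.

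Members were on all 6 nuclear chromosomes, but few were on X. Of the divergent pairs on chromosome III 25.5% (20.6 to 30.9%) had a peak, and 23.4% (18.9 to 28.5%) on I. The share was 19.5% on IV, 16.7% on II, 11.6% (8.69 to 15.02%) on V and 11.25% on X, with 9 of 80 pairs (5.28 to 20.3%). X held 80 of the 1745 divergent pairs. Single starts had a similar order, with the highest shares on III (4.96%) and I (4.53%), 3.02% on X and the lowest on V (2.16%). RNA genes lay within 250 bp of the summit in 7 members (2.18%), against 9.31% of single-gene peaks and 44.8% of peaks with no coding start in reach.

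The summits of members were rich in G and C against the bases around them. Mean G+C content was 45.7% within 50 bp of the summit, and 31.1% and 30.7% in windows of that size centred 100 bp to the left and right. Single-gene peaks had 44.9% at the summit, and 34.7% and 34.1% beside it. At the middle of the 1424 divergent pairs without a peak it was 34.1%. A rise of G+C at summits touches every word count below, and its part in them was not tested.

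Of all 2080 words of 6 bases, read on both strands, ACCGTA had the largest difference in share between member summits and the middles of pairs without a peak, and also the largest between member and single-gene summits. It was picked for this after its values were seen. Against pairs its lead was small, with a difference of 18.7 percentage points and 17.7 for the next word, GCGCAC. Against single-gene summits its difference was 14.3 points and that of the next word 7.90. ACCGTA lay in 72 of 321 member windows (22.4%, 17.98 to 27.4%), against 8.12% (6.18 to 10.4%) of single-gene summits, 2.22% of peaks with no coding start in reach and 3.72% (2.80 to 4.84%) of pairs without a peak. In windows 100 bp away it fell to 2.49% on the left and 3.12% on the right. There were 75 sites in all, 73 of them between the starts. Over 301 bp centred on the member summits the share was 27.7%, against 8.14% of all coding promoters of that length, taken from 250 bp before to 50 bp after the start.

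Members with the word had a median signal of 65.5 (56.8 to 77.8), against 55.1 (52.6 to 57.7) without it. It was present in 27.5% (20.7 to 35.1%) of the stronger 160 members and 17.4% (11.9 to 24.1%) of the weaker 161. In each comparison the intervals overlap, and pairs with a cytosolic ribosomal protein gene were not taken out. At single-gene peaks the word was in 11.5% of the stronger 338 and 4.72% of the weaker 339. The word had been picked for its difference between these same members and single-gene peaks. The higher shares of members are therefore not a separate result. ACCGTA was in 15 of 35 pairs with a cytosolic ribosomal protein gene (42.9%, 26.3 to 60.6%) and 57 of 286 other members (19.9%, 15.5 to 25.04%). Among these 15 were rpl-15 and rpl-20, whose windows are printed above. The word gives no reading of the factor that bound there, and 249 members had no copy at the summit.

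The other words searched lay closer together in members and single-gene peaks. CGAGAC was in 17.4% (13.5 to 22.0%) of member windows, against 13.6% (11.1 to 16.4%) of single-gene summits and 3.58% of pairs without a peak. Both words stood in 18 members. GCGCGC was in 11.5% of members, against 10.9% of single-gene summits and 2.53% of pairs without a peak. GAGA, which is part of CGAGAC, was in 70.7%, against 69.1% and 50.7%. CCAAT was in 13.7% (10.1 to 17.96%) of members, against 15.2% of single-gene summits and 16.1% of pairs without a peak. CACGTG was in 2.18%, against 3.55% and 2.25%. Over 301 bp, CGAGAC was in 23.7% of members and 8.15% of all coding promoters, and CCAAT in 37.4% of members and 45.7% of all coding promoters. GCGCGC and CACGTG read the same on both strands.

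**Figure D5:**
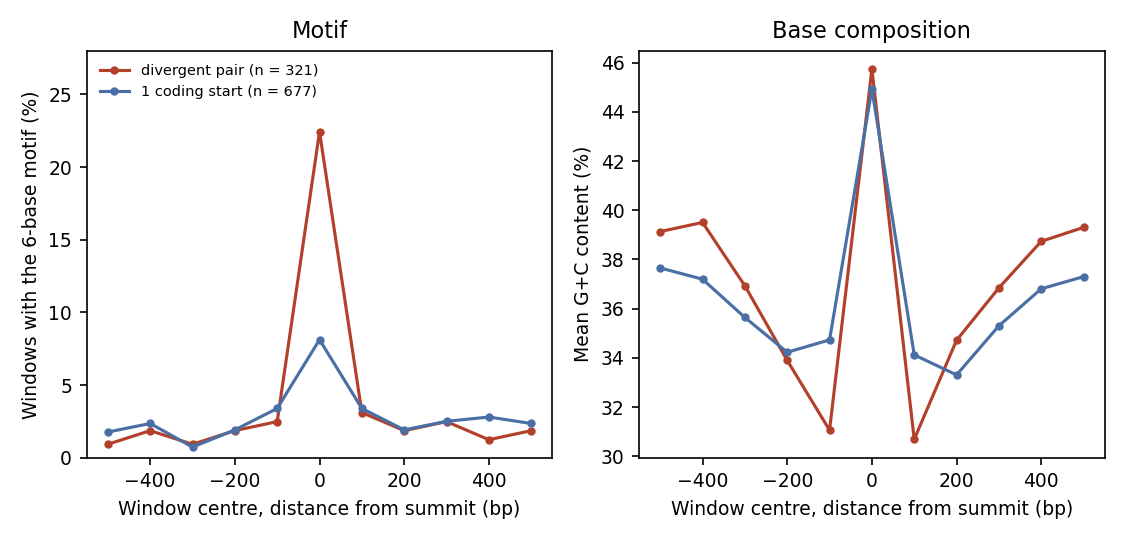
The left panel gives the share of windows (50 bp on each side of a centre) that hold the 6-base motif, in percent, and the right panel the mean G+C content in percent, by the distance of the window centre from the summit in bp. Members are in red and single-gene peaks in blue. The motif share of members is 22.4% at the summit and at most 3.12% in every other window shown, and G+C content falls to 31.1% and 30.7% beside the summit.

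Member genes were often followed closely by another gene on the same strand. Of the 642 genes, 190 (29.6%, 26.1 to 33.3%) had the next coding gene of the same strand within 300 bp of their end, against 410 of 2849 genes (14.4%, 13.1 to 15.7%) in pairs without a peak. In worms such spacing is known from operons, in which several genes are transcribed as 1 unit, but operons were not annotated here. The share was 27.2% (23.5 to 31.2%) of single starts with a peak and 12.6% of all coding genes, and the intervals of member genes and of single starts with a peak overlap. In 160 members (49.8%) at least 1 gene of the pair was followed in this way, and in 30 both were.

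At the edge of the rule, the farther start was 499 bp away in simr-1/C06A5.3 (signal 96.0) and piit-1/sas-5 (71.7) and 498 bp in znf-706/cpna-3 (47.1). Just outside it were clic-1/srr-10 at 501 bp (43.9), marb-1/F35G2.3 at 508 bp (40.5) and Y39A1A.22/mrpl-12 at 513 bp (54.4).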

How the data were processed

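Genomic DNA from anti-GFP ChIP-seq of both biological replicates was analysed as deposited peak lists in ce11, whose coordinates fit the chromosome lengths of WBcel235. The authors deposited a signal value, a summit and a −log10 q-value for each peak. The −log10 q-values were not used for any result here. A possible control is named, per the labels. Not given in the sources used here are the aligner, the peak caller, the use of the control and the IDR threshold. The lists hold no read totals, so depth is unknown.

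Starts are the 5′ ends of protein-coding genes of Ensembl release 115, and sequences are from the RefSeq genome. Exact (Clopper-Pearson) 95% intervals assume independent peaks or genes, so they cover counting error only. They are too narrow for genes in pairs where both genes of a pair are counted. No test over regions was made. Classification, pair counting and motif search were tested on simulated data. Python 3.11.15, numpy 2.4.6, pandas 2.3.3, SciPy 1.17.1 and matplotlib 3.10.9 were used. A peak overlapped a replicate's region when they shared at least 1 bp. The strongest 1707 regions of each replicate match the number of all IDR peaks.

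The members, the 19 lists and the motifs were chosen with earlier results of these data known. Lists were made from gene names. Patterns that took tim-1 and other genes of different function were narrowed after values were seen. The genes named are those of the 15 strongest members, the 3 strongest of each list, pairs with both genes listed, members at the edge of the rule, and F23B12.7; dlat-1 and lin-7/elof-1 were named for their position. A gene that this rule names is not reported here. Alternatives were another reach, only the peaks above the median signal, either replicate alone, other windows and the removal of peaks at RNA genes. The ce10 lists and mitochondrial peaks were left out.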

Additional observations from a re-analysis of the deposited data

How the results depend on the processing

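Of 63 alternatives over 11 values, 24 moved, which for a share or median is outside its 95% interval and for the number of members over 1.5 times; 39 did not. The cause was not tested beyond what each setting changes by its construction. With IDR peaks at or above the median signal there were 191 members, 22.7% of nuclear peaks, 10.9% of divergent pairs and 1.65% of single starts had a peak, and the median rank percentile was 55.8. With a reach of 250 bp there were 136 members (8.08% of nuclear peaks), the median distance between starts was 279 bp, 7.79% of pairs and 2.05% of single starts had a peak, and ACCGTA, a motif added after the data were seen, was in 17.6% of members. With a reach of 1000 bp there were 431 members, 25.6% of nuclear peaks, the median distance was 467 bp, and 22.6% of pairs and 4.78% of single starts had a peak. Without peaks at RNA genes, members were 24.0% of nuclear peaks and 3.19% of single starts had a peak. With pairs at most 500 bp apart, 24.4% had a peak. With 100 bp on each side of the summit, CCAAT was in 29.3% of members. With summits within 100 bp, 97.5% of members matched in replicate 1 and 94.7% in replicate 2, where an overlap of 50% of the shorter peak gave 98.8%. With either replicate alone, members were 16.8 to 17.6% of nuclear peaks and 16.2 to 17.0% of pairs had a peak, against 3.43 to 3.53% of single starts. The share of pairs was above that of single starts in the 6 settings that give both: higher signal, both reaches, RNA genes left out (17.99% of pairs) and either replicate alone. With 2 replicates of 1 group and no read totals, no difference between conditions and no error from depth can be given. No paired analysis was possible because there was 1 group.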
